A study of Mus musculus with 36 samples.

Results

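The cytochrome P450 genes of families 1 and 2 were taken from the liver table as every gene whose symbol begins with Cyp1a, Cyp1b or Cyp2 followed by a letter. This gave 55 genes of the 21889 in the table, 3 in family 1 and 52 in family 2. They were measured by RNA-Seq of polyadenylated RNA from whole livers of 36 untreated male C57BL/6 mice (C57BL/6J in the description of the animals), 3 mice at each of 12 ages. The ages were late gestation (GD17.5, 2 days before birth), birth before suckling (Day 0), Days 1, 3 and 5, then Days 10, 15, 20 and 25, and last Days 30, 45 and 60. Pups were weaned at 21 days of age, so that Day 20 is the last suckling age and Day 25 the first age after weaning, and Day 60 is the adult age. The mice at each age came from several litters, the libraries are of whole tissue, and no female mice were included.

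Cytochrome P450 enzymes are haem proteins of the endoplasmic reticulum that insert 1 atom of oxygen into fat-soluble compounds, with electrons handed on by NADPH-cytochrome P450 reductase (Por) and cytochrome b5. Families 1 and 2 carry out much of the first phase of drug and toxicant metabolism in the liver, and several members also act on steroids, fatty acids, bile acids and vitamin D. Many are known for expression in hepatocytes of one zone of the lobule, for induction through the aryl hydrocarbon receptor or the constitutive androstane receptor, or for expression that differs between adult male and female mice. In the mouse most of family 2 lies in a few arrays of closely related genes.

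Expression is given in FPKM, the fragments per kilobase of exon and 1000000 mapped fragments, as deposited, and values in each sentence are for the 3 mice of an age unless a mean ± SD (n = 3) is given. Of the 55 genes, 41 had an age mean of 1 FPKM or more and were tested, and 14 did not. Members were read through a limma fit of log2(FPKM + 1) to all 11149 genes that met the same minimum, with Benjamini-Hochberg adjustment over those genes, so that a log2 fold change below refers to log2(FPKM + 1) and understates the change of members near or under 1 FPKM. A member is called higher or lower at an adjusted p under 0.05, and beside each count stands the percentage of all 11149 genes called in that direction. The tested members were chosen by a minimum that could be met through one age alone, so no count over them is used as support for a change.

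The deposited values allowed an estimate of about 85.0 fragments (in units of 1000000) per library, or 140 to 171 fragments for 1 FPKM of Cyp2d9, Cyp2e1, Cyp2b9, Cyp2a4 or Cyp2a5. Replicates of an age correlated with a Pearson's r of at least 0.952 across genes. Hepatocyte markers (Alb, Ttr, Apoa1, Apoa2, Serpina1a and Tat, 6 of 6 in the table) summed to 9705 to 11203 FPKM on GD17.5, 41278 to 50618 FPKM on Day 0 and 49708 to 58874 FPKM on Day 60. Erythroid markers (7 of 7) summed to 141757 to 195635, 72468 to 84418 and 687 to 789 FPKM at the same ages. A higher value in whole liver cannot be told apart from a larger share of hepatocytes. In 6 libraries the summed exocrine pancreas or skeletal muscle markers exceeded 1000 FPKM (Day 0 mice 1 and 3, Day 15 mouse 3, Day 20 mouse 2, Day 45 mouse 1 and Day 60 mouse 1), and counts without these libraries stand beside the comparisons below. Pancreatic markers under this limit remained in other libraries, with sums of at least 406 FPKM in every Day 0 mouse and up to 999 FPKM on Day 10. They summed to 6.22 to 6.94 FPKM on GD17.5 and 4.41 to 7.57 FPKM on Day 25. Leaving out the 6 libraries therefore does not make the ages alike in these markers. The part of either marker shift in the results was not tested. Single hepatocyte markers changed unequally from GD17.5 to Day 0. Alb went from 3272 ± 518 to 25672 ± 5133 FPKM and Ttr from 1703 ± 121 to 3766 ± 551 FPKM. Values scaled below to the hepatocyte marker sum can therefore carry the age course of the markers themselves, which was not tested.

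The summed mRNA expression of the 55 genes increased from 397 ± 40.2 FPKM on GD17.5 to 2127 ± 266 FPKM on Day 0, 4076 ± 823 FPKM on Day 5 and 9517 ± 1061 FPKM on Day 20. After weaning the sum was 7934 ± 835 FPKM on Day 25, 8719 ± 938 FPKM on Day 30, 9490.1 ± 918 FPKM on Day 45 and 8341 ± 2056 FPKM on Day 60. As a share of all FPKM in the table, this was 0.0938% on GD17.5, 2.50% on Day 20 and 2.10% on Day 60. The adult sum ranged widely among the mice, at 9801, 9233 and 5989 FPKM, and the mouse with the lowest sum (mouse 3) was the lowest of the 3 for 29 of the 41 tested members and the highest for 7.

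The composition of the pool also shifted. Cyp2d26 was the most expressed member on GD17.5 with 47.8% of the sum, and it remained so on Day 0 (41.8%) and Day 1 (38.0%). From Day 3 onward the leading member was Cyp2e1, which oxidizes ethanol, acetone and acetaminophen, with 42.8% of the sum on Day 20 and 24.3% on Day 25. The Cyp2d subfamily as a whole held 60.6% of the sum on GD17.5 and 27.3% on Day 60. In the fetus 7 members made up 90% of the sum, against 14 on Day 25 and 13 on Day 60.

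**Figure D1:**
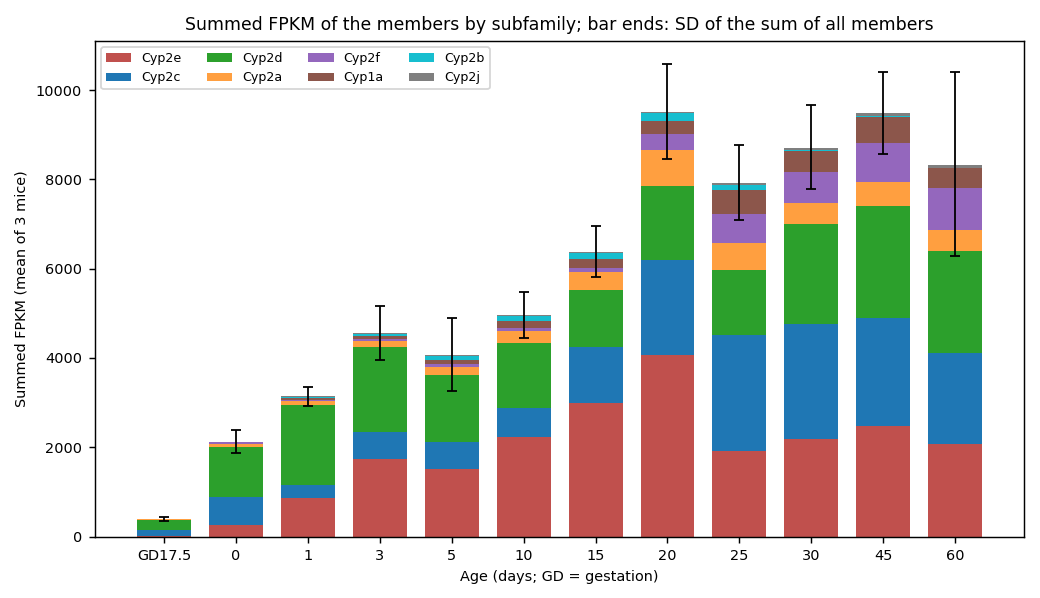
Summed FPKM of the members at each age, stacked by subfamily (mean of 3 mice), with the SD of the sum of all members as the error bar. The sum rises from 397 FPKM on GD17.5 to 9517 FPKM on Day 20, and the Cyp2e segment (red, Cyp2e1) shrinks between Day 20 and Day 25.

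The highest age mean fell on Day 20 for 9 of the 41 members, on Day 25 for 4, on Day 30 for 5, on Day 45 for 9 and on Day 60 for 8. The other 6 peaked on Day 15 or earlier, and the lowest mean was on GD17.5 for 33 members. By Day 60, 7 members had dropped below 25% of their highest mean. In the comparisons of each age with Day 60, all 41 differed in at least one age (background 90.7% of genes).

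Across the whole time course, Day 60 was compared with GD17.5, and the minimum of 1 FPKM could be met through later ages alone. The limma fit called 37 of 41 members higher on Day 60 (background 18.6%) and none lower (background 56.4%), also none at an unadjusted p under 0.05, and the counts were the same without the 6 libraries with pancreatic or muscle markers. The median log2 fold change was 3.05 over the tested members and -0.56 over all genes. With each library scaled to the hepatocyte marker sum, which moved the median of all genes to -2.56, 28 members were called higher and 6 lower, with opposite signs for Cyp2b13, Cyp2c40, Cyp2c68, Cyp2c69 and Cyp2d26, and the calls of Cyp2a22, Cyp2a4, Cyp2c44 and Cyp2d37-ps were lost.

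On the log2(FPKM + 1) scale Cyp2e1 had the largest adult increase, with 0.998, 0.882 and 1.00 FPKM in the 3 fetal livers and 2573, 2261 and 1384 FPKM in the adult livers. The log2 fold change was 10.00 (SE 0.24, adjusted p = 6.3e-24). Cyp2c29, a target of the constitutive androstane receptor, went from 0.124, 0.161 and 0.0758 FPKM to 853, 870.0 and 477 FPKM, a log2 fold change of 9.31 (SE 0.23, adjusted p = 1.2e-23). Both were at about 1 FPKM or less in the fetus, and the adult and fetal values did not overlap.

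Cyp2f2, which oxidizes naphthalene and is known from periportal hepatocytes and the airway epithelium, rose from 1.52, 1.59 and 1.41 FPKM to 1089, 966 and 788 FPKM, the highest age of this gene, by 8.55 (SE 0.27, adjusted p = 1.6e-21). The 4 lung markers were each under 1 FPKM in every mouse. Cyp1a2, which oxidizes aromatic amines and caffeine, rose from 0.195, 0.179 and 0.164 FPKM to 528, 494 and 289 FPKM, by 8.49 (SE 0.27, adjusted p = 1.6e-21). Cyp2c50 went from 0.131, 0.0770 and 0.0686 FPKM to 439.9, 446 and 160.0 FPKM, by 8.18 (SE 0.26, adjusted p = 2.7e-21). Cyp2d9, the male-predominant testosterone hydroxylase, went from 4.40, 2.66 and 4.15 FPKM to 1277, 1111 and 499 FPKM, by 7.58 (SE 0.28, adjusted p = 5.0e-20). The values of the fetal and adult livers did not overlap for any of the 4.

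The 4 members that were not called had a log2 fold change of 0.28 (Cyp1a1), 0.16 (Cyp2b23), -0.35 (Cyp2b9) and -0.12 (Cyp2s1). These low values depend on the pseudocount of 1. The ratio of mean FPKM was 10.4 for Cyp1a1 and 5.79 for Cyp2b23, without overlap, and 0.468 for Cyp2b9, with overlap. With a pseudocount of 0.1, Cyp1a1 and Cyp2b23 were called higher and Cyp2b9 lower. Of the 37 calls, 34 held when any 1 of the 36 libraries was left out. The call of Cyp2b13 (0.64) was lost without Day 60 mouse 3 (0.41, adjusted p = 0.126), and that of Cyp2c68 (0.57) without Day 60 mouse 2 (0.41, adjusted p = 0.070). The pseudogene Cyp2d37-ps (0.95) lost its call without Day 60 mouse 2 (0.79, adjusted p = 0.080) or without fetal mouse 1 or 3. Cyp2a4 stayed called, but its log2 fold change of 2.44 fell to 1.19 without Day 60 mouse 3.

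At birth, before any suckling, Day 0 was compared with GD17.5, 2 days earlier, and here too the minimum could be met through later ages alone. From GD17.5 to Day 0, limma called 28 of 41 members higher (background 13.1%) and none lower (background 41.4%), again none at an unadjusted p under 0.05. Scaled to the hepatocyte markers, 11 members were higher and 10 lower, and without the 6 libraries with pancreatic or muscle markers, which leaves a single Day 0 mouse that is assumed to vary like the other ages, 17 were higher and 0 lower. The hepatocyte scaling turned the sign for Cyp2a12, Cyp2a22, Cyp2a5, Cyp2c40, Cyp2c44, Cyp2c68, Cyp2d10, Cyp2d13, Cyp2d22, Cyp2d34, Cyp2j6 and Cyp2s1, and ended the call of Cyp1a2, Cyp2b9, Cyp2d11, Cyp2d12 and Cyp2d26. The call was lost in at least one fit without 1 library for Cyp1a2, Cyp2d11, Cyp2d13 and Cyp2d34. Without Day 0 mouse 1 these changes were 0.48 rather than 0.65 (Cyp1a2), 0.36 rather than 0.49 (Cyp2d11), 0.26 rather than 0.40 (Cyp2d13) and 0.70 rather than 1.06 (Cyp2d34).

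The increase of Cyp2e1 at birth was the largest on the log2(FPKM + 1) scale, to 333, 147 and 269 FPKM on Day 0, all far above the 1 FPKM of the fetal livers (log2 fold change 6.92, SE 0.24, adjusted p = 6.1e-19). Cyp2d9 reached 116, 44.7 and 88.6 FPKM (log2 fold change 4.07, SE 0.28, adjusted p = 1.4e-12) and Cyp2f2 46.0, 34.2 and 41.4 FPKM (log2 fold change 4.04, SE 0.27, adjusted p = 8.3e-13). Cyp2c70, which forms muricholic acids, the bile acids typical of mice, rose from 16.9, 9.10 and 14.2 FPKM to 129.8, 143 and 121 FPKM (log2 fold change 3.24, SE 0.27, adjusted p = 9.5e-11). Cyp2c69 rose from 33.9, 19.3 and 29.3 FPKM to 273, 229 and 247 FPKM, its highest age (log2 fold change 3.17, SE 0.19, adjusted p = 1.1e-13). Cyp2a4, a female-predominant steroid hydroxylase, rose from 0.732, 0.976 and 0.858 FPKM to 14.9, 11.4 and 10.8 FPKM (log2 fold change 2.83, SE 0.55, adjusted p = 9.7e-05). Each of these 6 members kept a positive log2 fold change under all 4 scalings used.

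Within the first day of suckling the members moved in both directions. From Day 0 to Day 1, 23 members were higher (background 23.7%) and 5 were lower (background 7.88%), against 19 and 5 without the 6 libraries. The number lower was 3 without Day 0 mouse 2 and also 3 without Day 1 mouse 3, and 21 of the 28 calls held in every fit without 1 library. Calls lost in at least one such fit were those of Cyp2a5, Cyp2c54, Cyp2c67, Cyp2c68, Cyp2d11, Cyp2d34 and Cyp2r1, all below 1 in absolute log2 fold change.

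Cyp2c70 fell back to 10.4, 18.5 and 6.84 FPKM on Day 1, its lowest age, overlapping the fetal values, and recovered to 92.1, 83.1 and 87.6 FPKM on Day 3. The fitted change was -3.45 (SE 0.27, adjusted p = 9.3e-11) and then 2.88 (SE 0.27, adjusted p = 1.1e-08). Cyp2c69 fell to 71.2, 71.6 and 54.8 FPKM (log2 fold change -1.91, SE 0.19, adjusted p = 1.3e-08). Cyp2c40 fell from 106, 123 and 95.0 FPKM to 61.9, 67.0 and 49.4 FPKM (log2 fold change -0.86, SE 0.18, adjusted p = 6.7e-04). Cyp2a5 and Cyp2c68 were also called lower, by 0.79 and 0.60 on the log2 scale, but the call of Cyp2c68 was lost without Day 0 mouse 2 (-0.39, adjusted p = 0.138) and that of Cyp2a5 without Day 0 mouse 2 (-0.61, adjusted p = 0.143) or without any of the Day 1 mice.

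The 2 Cyp1a genes, both targets of the aryl hydrocarbon receptor, increased over the same day. Cyp1a2 went from 1.36, 0.437 and 0.884 FPKM to 28.4, 38.9 and 31.6 FPKM (log2 fold change 4.18, SE 0.27, adjusted p = 1.6e-12). Cyp1a1, the inducible enzyme for polycyclic aromatic hydrocarbons, went from 0.0219, 0.0234 and 0.0179 FPKM to 1.47, 1.29 and 6.31 FPKM, its highest age, with mouse 3 more than 4 times the others (log2 fold change 1.76, SE 0.22, adjusted p = 5.8e-07). It then fell to 0.257 ± 0.0328 FPKM on Day 3 and was 0.247 ± 0.114 FPKM on Day 60. That fall was -1.46 (SE 0.22, adjusted p = 3.8e-05) with all mice and -0.92 without Day 1 mouse 3. Ahr, which encodes the receptor, was at 0.632 ± 0.0839 FPKM on Day 0 and 1.47 ± 0.154 FPKM on Day 1, a change that was not called (adjusted p = 0.12). Cyp1b1, the third gene of family 1, did not exceed 0.124 FPKM in any mouse.

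Among the other members higher on Day 1, Cyp2b9, a female-predominant gene of adult liver, rose from 4.28, 1.85 and 4.56 FPKM to 24.3, 34.1 and 18.2 FPKM (log2 fold change 2.56, SE 0.28, adjusted p = 8.7e-08). Cyp2c37 rose from 6.96, 5.52 and 5.50 FPKM to 30.8, 28.3 and 23.8 FPKM (log2 fold change 2.03, SE 0.27, adjusted p = 2.0e-06). Cyp2c50 (log2 fold change 1.95, SE 0.26, adjusted p = 2.1e-06) and Cyp2d9 (log2 fold change 1.93, SE 0.28, adjusted p = 5.7e-06) also rose, as did Cyp2e1 (1.85).

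**Figure D2:**
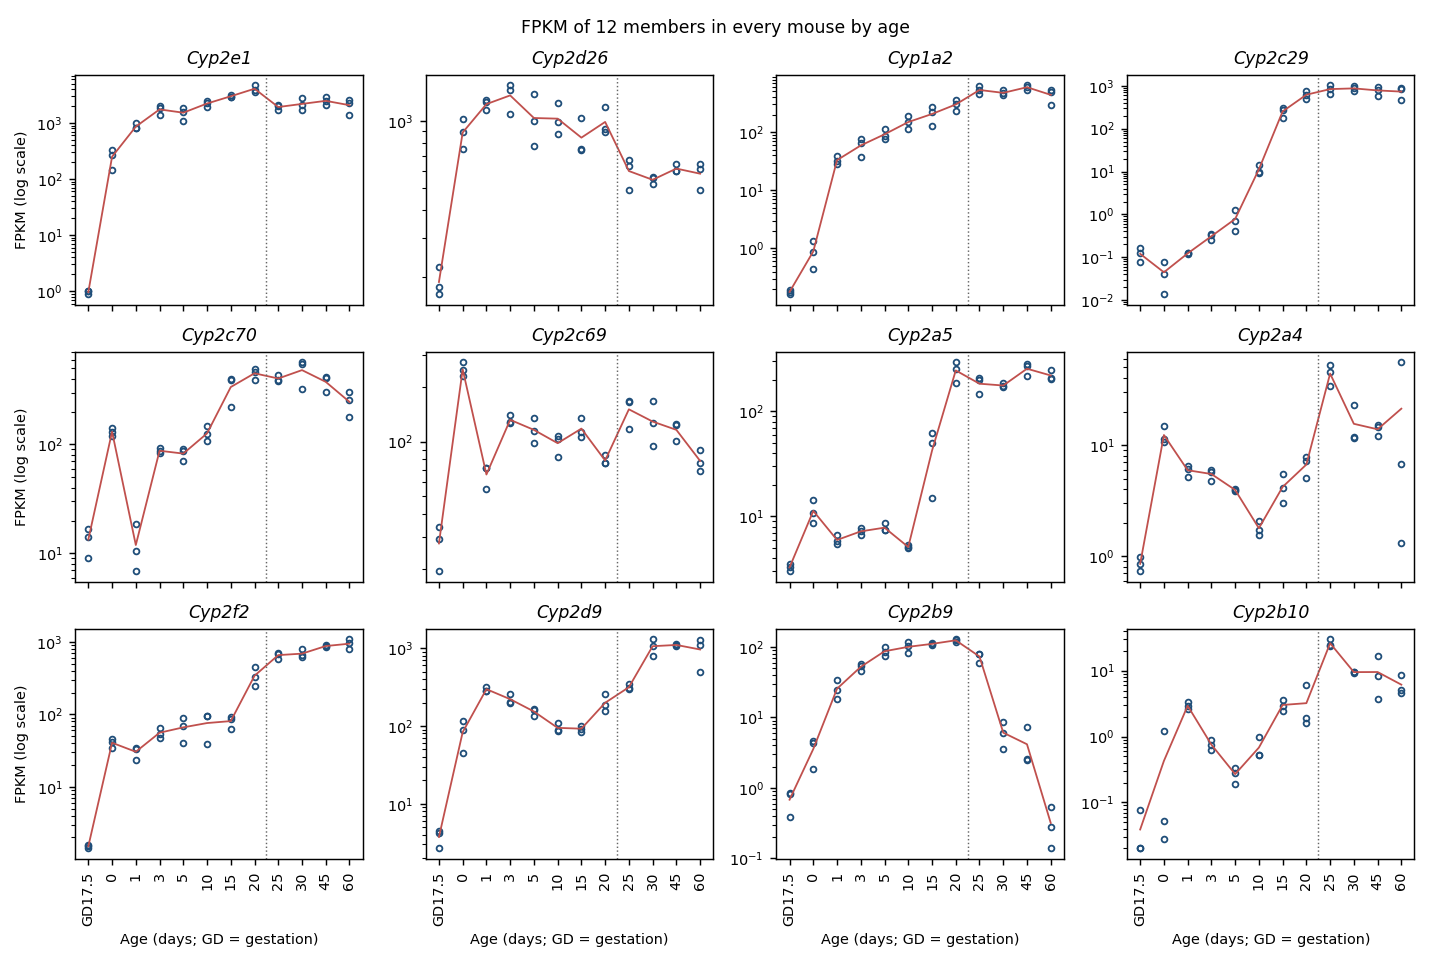
FPKM on a log scale (y axis) of 12 members at the 12 ages (x axis), with 1 circle per mouse, a line through the age means and a dotted line at weaning. Cyp2c70 and Cyp2c69 spike on Day 0 and drop on Day 1, Cyp2c29 and Cyp2a5 climb from Day 10 to Day 20, and Cyp2b9 falls after Day 20.

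During suckling more members rose than fell at each step, except from Day 5 to Day 10 after scaling to the hepatocyte markers. From Day 1 to Day 3, 15 members were higher (background 8.22%) and 2 lower (background 3.09%). The 2 lower were Cyp1a1 and Cyp2b10. From Day 3 to Day 5, 4 were higher (background 1.09%) and none lower by limma (background 2.12%, 1 member at an unadjusted p under 0.05). The 4 were Cyp2a12, Cyp2b13, Cyp2b23 and Cyp2g1, with log2 fold changes of 0.61, 0.96, 0.47 and 0.78.

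From Day 5 to Day 10, 9 were higher (background 1.88%) and 3 lower (background 34.4%), with 15 and 1 after upper-quartile scaling, 8 and 1 after scaling to a common sum, and 1 and 12 after scaling to the hepatocyte markers. From Day 10 to Day 15, 12 were higher (background 1.52%) and 1 lower (background 10.5%), and from Day 15 to Day 20, 11 were higher (background 0.834%) and none lower by limma (background 1.16%, 2 members at an unadjusted p under 0.05). Without the 6 libraries with pancreatic or muscle markers, the numbers higher at the 5 suckling steps in order were 11, 4, 10, 10 and 9, and the numbers lower were 2, 0, 3, 1 and 0. In fits without 1 library, 9 of 17, 1 of 4, 5 of 12, 6 of 13 and 6 of 11 calls held throughout for the 5 suckling steps in order.

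Cyp2c29 had the largest fitted step of the suckling period. It was at 0.688, 1.25 and 0.404 FPKM on Day 5, 9.73, 14.6 and 9.50 FPKM on Day 10, 173, 276 and 309 FPKM on Day 15 and 761, 497 and 602 FPKM on Day 20, and each age lay above the one before without overlap. The fitted steps were 2.79 (SE 0.23, adjusted p = 3.4e-10), 4.35 (SE 0.23, adjusted p = 2.7e-13) and 1.31 (SE 0.23, adjusted p = 0.0014). Its highest mean was on Day 30, with 752, 966 and 897 FPKM, and its lowest on Day 0, with 0.0794, 0.0138 and 0.0407 FPKM.

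Cyp2a5, the coumarin hydroxylase, followed later. It was at 5.07, 5.00 and 5.30 FPKM on Day 10, 15.1, 49.7 and 61.9 FPKM on Day 15 and 186, 255 and 294 FPKM on Day 20, with steps of 2.60 (SE 0.28, adjusted p = 1.0e-07) and 2.70 (SE 0.28, adjusted p = 3.5e-07). The spread on Day 15 was wide, yet its lowest mouse was still above all Day 10 mice. Its lowest mean was on GD17.5 (3.31, 3.01 and 3.52 FPKM) and its highest on Day 45 (267, 281 and 215 FPKM).

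Cyp2f2 went from 63.5, 85.5 and 93.4 FPKM on Day 15 to 248, 325 and 452 FPKM on Day 20 (log2 fold change 2.04, SE 0.27, adjusted p = 2.1e-05). Cyp2c50 rose from 128, 84.1 and 75.1 FPKM to 391, 327 and 336 FPKM (log2 fold change 1.90, SE 0.26, adjusted p = 4.8e-05) and peaked on Day 25 with 479, 370.1 and 596 FPKM. From Day 10 to Day 15 increases were also called for Cyp2c39 (0.604 ± 0.0730 to 5.70 ± 2.02 FPKM, log2 fold change 2.02, SE 0.22, adjusted p = 1.0e-07) and Cyp2c55, known from the intestine and from induced liver (0.8995 ± 0.185 to 7.29 ± 0.302 FPKM, log2 fold change 2.13, SE 0.21, adjusted p = 2.0e-08). Cyp2c44, an arachidonic acid epoxygenase, was the single member lower on Day 15, from 122, 153 and 107 FPKM to 93.1, 47.6 and 56.8 FPKM, a call lost without Day 15 mouse 2 (-0.78, adjusted p = 0.073).

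Across weaning, 12 members rose and 6 fell between Day 20 and Day 25 (background 3.94% higher and 3.26% lower), and the mixed pattern split close relatives. Of these 18 calls, 13 held in every fit without 1 library. Without the 6 libraries with pancreatic or muscle markers, 11 members were higher and 6 lower.

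Cyp2b10, the classical phenobarbital-inducible target of the constitutive androstane receptor, rose the most, from 6.12, 1.89 and 1.63 FPKM to 24.2, 24.1 and 30.0 FPKM, its highest age (log2 fold change 2.83, SE 0.33, adjusted p = 5.2e-07). It had been at 0.0763, 0.0202 and 0.0200 FPKM on GD17.5. Cyp2a4 rose from 5.03, 7.20 and 7.85 FPKM to 45.5, 52.3 and 34.4 FPKM, also its highest age (log2 fold change 2.55, SE 0.55, adjusted p = 0.0024). Cyp2c54 rose from 64.6, 50.2 and 51.1 FPKM to 210.1, 157 and 269.7 FPKM, its highest age, from a fetal 0.00761, 0.130 and 0.0505 FPKM (log2 fold change 1.90, SE 0.28, adjusted p = 1.9e-05). Cyp2c67 rose from 2.32, 2.61 and 2.85 FPKM to 13.1, 7.44 and 11.2 FPKM (log2 fold change 1.66, SE 0.17, adjusted p = 5.3e-08), and the adult livers had 61.3, 69.0 and 51.7 FPKM, its highest age, against 0.231, 0.190 and 0.206 FPKM in the fetus.

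Smaller increases were called for Cyp2d40 (log2 fold change 1.45, SE 0.28, adjusted p = 6.4e-04), Cyp2c44 (1.23), Cyp2f2 (0.98), Cyp2r1 (0.93), Cyp2c69 (0.91), Cyp2c40 (0.87), Cyp2u1 (0.69) and Cyp2d13 (0.57). The calls of Cyp2f2 and Cyp2d13 were each lost without Day 20 mouse 1 (0.77, adjusted p = 0.133 and 0.49, adjusted p = 0.098) and in other fits. Cyp2r1, a vitamin D hydroxylase of the liver, was at 0.384 ± 0.133 FPKM on GD17.5, 2.16 ± 0.425 FPKM on Day 20, 5.03 ± 0.898 FPKM on Day 25 and 6.87 ± 0.478 FPKM on Day 60.

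Of the members that fell, Cyp2a22 went from 144, 149 and 162 FPKM, its highest age, to 57.5, 52.4 and 48.5 FPKM (log2 fold change -1.51, SE 0.18, adjusted p = 9.6e-07). Cyp2b13 went from 40.2, 34.4 and 48.7 FPKM to 17.54, 12.1 and 19.3 FPKM (log2 fold change -1.29, SE 0.23, adjusted p = 2.3e-04). Cyp2e1 fell from 3556, 3921 and 4754 FPKM, its highest age, to 2021, 1675 and 2072 FPKM, without overlap (log2 fold change -1.08, SE 0.24, adjusted p = 0.0038). Cyp2c37 went from 376, 313 and 353 FPKM, its highest age, to 156, 119.6 and 199 FPKM, a fall of 1.16 on the log2 scale whose call was lost without Day 25 mouse 2 (-0.97, adjusted p = 0.058). Cyp2d26 (-0.73) and Cyp2b23 (-0.49) were also lower, and both calls were lost in fits without 1 library, for Cyp2d26 without Day 20 mouse 3 (-0.61, adjusted p = 0.075).

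Cyp2f2, which was 582, 714 and 681 FPKM on Day 25, rose while Cyp2e1 fell. The call of Cyp2f2 was lost without the 6 libraries (0.97, adjusted p = 0.098) and, as given above, in fits without 1 library. Of the 7 members listed as pericentral (Cyp1a2, Cyp2e1, Cyp2c29, Cyp2c37, Cyp2c50, Cyp2c54 and Cyp2a5), 1 rose (background 3.94%) and 2 fell (background 3.26%) across weaning, and all 7 were higher on Day 60 than on GD17.5 (background 18.6%). Of the 4 listed targets of the constitutive androstane receptor (Cyp2b10, Cyp2c29, Cyp2c37 and Cyp2c55), 1 rose and 1 fell across weaning, against the same backgrounds.

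**Figure D3:**
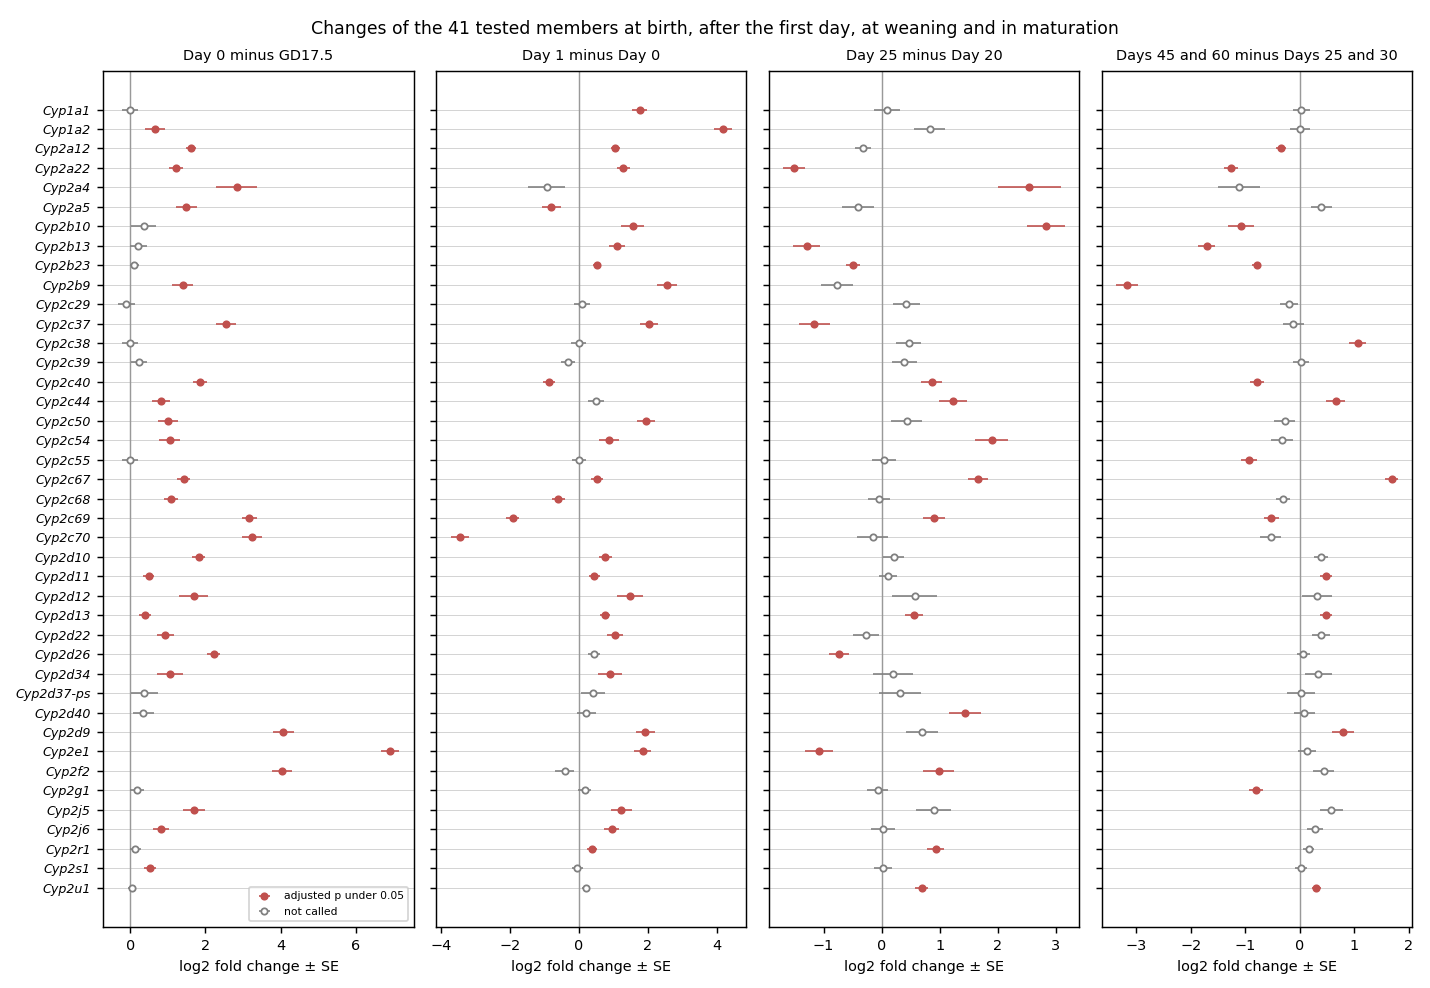
Log2 fold change ± SE (x axis) of the 41 tested members (rows) at birth, in the first day, at weaning and from Days 25 and 30 to Days 45 and 60, with filled points for an adjusted p under 0.05. No called member lies left of 0 in the first panel (12 of the called members change sign when scaled to the hepatocyte markers), while the other panels hold calls on both sides, with Cyp2c70 at -3.45 in the second and Cyp2b9 at -3.16 in the last.

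From Day 25 to Day 30 members of the Cyp2b subfamily and some of their neighbours fell, and Cyp2d9 rose. In all, 4 members were higher (background 0.834%) and 6 lower (background 0.807%), with the same counts without the 6 libraries, and 9 of these 10 calls held in every fit without 1 library. The exception was Cyp2b10 (-1.36), which lost its call without any of the Day 25 or Day 30 mice, for example -1.26 (adjusted p = 0.165) without Day 25 mouse 3.

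Cyp2b9 fell from 80.4, 59.9 and 78.8 FPKM to 3.53, 8.63 and 6.05 FPKM (log2 fold change -3.44, SE 0.28, adjusted p = 6.1e-10). It had peaked on Day 20 with 128, 117 and 127 FPKM and reached its lowest age on Day 60 with 0.138, 0.275 and 0.540 FPKM, so that the adult mean was 0.256% of the highest. Cyp2b13 fell from 17.54, 12.1 and 19.3 FPKM to 1.55, 1.18 and 1.67 FPKM (log2 fold change -2.79, SE 0.23, adjusted p = 5.0e-10). Cyp2a22 fell from 57.5, 52.4 and 48.5 FPKM to 8.87, 16.7 and 16.5 FPKM (log2 fold change -1.89, SE 0.18, adjusted p = 2.3e-08). The low members Cyp2g1, known from the olfactory epithelium, and Cyp2b23 went from 3.37 ± 0.203 to 0.676 ± 0.0634 FPKM and from 2.17 ± 0.392 to 0.397 ± 0.0206 FPKM.

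Cyp2d9 rose over the same 5 days, from 295, 307 and 343 FPKM to 1301, 803 and 1077 FPKM (log2 fold change 1.72, SE 0.28, adjusted p = 1.7e-04). Cyp2c67 (1.36), Cyp2d11 (0.90) and Cyp2u1 (0.80) were the other members higher on Day 30. Cyp2u1, a fatty acid hydroxylase, went from 0.0692 ± 0.0104 FPKM on GD17.5 to 0.415 ± 0.0449 FPKM on Day 20, 1.29 ± 0.295 FPKM on Day 25 and 3.03 ± 0.761 FPKM on Day 30.

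From Day 30 to Day 45, 2 members were higher (background 0.233%) and 1 lower (background 0.798%). Scaling to a common sum or to the hepatocyte markers left 1 and 0, and leaving out the 6 libraries with pancreatic or muscle markers left 0 and 0. The 3 were Cyp2c67 (0.92), Cyp2c38 (0.86) and Cyp2c55 (-0.85), and the call of Cyp2c67 alone held in every fit without 1 library. From Day 45 to Day 60 limma called no member higher (background 0.17%, 1 member at an unadjusted p under 0.05) and 1 lower (background 0.0628%), which was Cyp2b9 (log2 fold change -1.85, SE 0.28, adjusted p = 9.6e-04). That call was absent without the 6 libraries.

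Ages after sexual maturation (Days 45 and 60) were also compared with the ages just after weaning (Days 25 and 30), since several members differ between adult male and female mice. There were 7 members higher (background 2.69%) and 10 lower (background 5.25%), against 10 and 8 after scaling to the hepatocyte markers and 4 and 9 without the 6 libraries. The largest called changes were in Cyp2b9 (log2 fold change -3.16, SE 0.20, adjusted p = 9.7e-13), Cyp2b13 (log2 fold change -1.71, SE 0.16, adjusted p = 6.2e-09), Cyp2c67 (log2 fold change 1.68, SE 0.12, adjusted p = 2.7e-11), Cyp2a22 (log2 fold change -1.26, SE 0.13, adjusted p = 3.7e-08), Cyp2b10 (log2 fold change -1.08, SE 0.24, adjusted p = 0.0029) and Cyp2c38 (log2 fold change 1.06, SE 0.15, adjusted p = 1.2e-05). With a pseudocount of 0.1 the call of Cyp2b10 was lost (adjusted p = 0.055). Cyp2c38 was listed at 0 in all 3 mice of Day 3, and was at 5.01 ± 1.70 FPKM on Day 25 and 13.03 ± 2.06 FPKM on Day 60.

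Of the 7 members listed as higher in adult female liver (Cyp2a4, Cyp2b9, Cyp2b10, Cyp2b13, Cyp2c39, Cyp2c40 and Cyp2c69), 5 were lower at the older ages (background 5.25%). Of these, Cyp2c69 (-0.52) lost its call after scaling to the hepatocyte markers (-0.33, adjusted p = 0.27) and without the 6 libraries (-0.54, adjusted p = 0.080). Cyp2c39 (0.02) and Cyp2a4 (-1.12) were not called, and Cyp2a4 was called lower without Day 60 mouse 3. Both members listed as higher in adult male liver, Cyp2d9 (0.79) and Cyp2u1 (0.30), were higher (background 2.69%). The call of Cyp2u1 was lost without the 6 libraries, with a pseudocount of 0.1 (adjusted p = 0.072) and after scaling to a common sum (adjusted p = 0.067). It was also lost in 6 of the fits without 1 library, for example 0.22 (adjusted p = 0.071) without Day 30 mouse 1. The calls of Cyp2c44 and Cyp2c69 were lost in 2 and 1 of these fits. Taken by single steps, 3 of the 7 female-listed members were lower from Day 25 to Day 30 (background 0.807%). None was lower from Day 30 to Day 45 (background 0.798%), and 1 was lower from Day 45 to Day 60 (background 0.0628%). The 2 male-listed members were higher from Day 25 to Day 30 (background 0.834%) and were not called at the later steps. These lists were written from background knowledge with earlier results of the same mice known.

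Cyp2a4 was the least uniform of the members in the adult, with 1.31, 6.72 and 55.9 FPKM in the 3 mice on Day 60. Mouse 3, which had the lowest value for most other members, had the highest Cyp2a4 value of all 36 mice, while Cyp2a5 showed 247, 208 and 202 FPKM in the same livers. The coding sequences of this pair were 98.5% identical, and 11.3% of the 100-base windows of the Cyp2a4 transcript were shared with Cyp2a5. Day 60 mouse 3 also had 1.57 FPKM of Cyp2b13 and 0.540 FPKM of Cyp2b9, the highest of the 3 adults in each case, with Cyp2b9 under 1 FPKM in all of them. Cyp2c39, Cyp2c40 and Cyp2c69, also listed above as higher in adult female liver, were below their Day 60 means in this mouse.

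Several close relatives had different courses, and their start regions are printed to show how alike the neighbouring genes are. The sequences are from RefSeq on GRCm38.p6, a later build than the NCBI37/mm9 of the FPKM table, and end at the base before the annotated start. They run 5′ to 3′ on the gene's strand, and capitals mark bases that differ from, or are inserted against, the first sequence of each set. Bases at an end that align with nothing, 1 in Cyp2b10, 1 in Cyp2a4 and 3 in Cyp2d10, stay in lower case. RefSeq start regions were matched by symbol for 41 of the 55 members.

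Cyp2b9 and Cyp2b13 both peaked on Day 20, whereas Cyp2b10 peaked on Day 25. By Day 25 the means of Cyp2b9 and Cyp2b13 were 0.589 and 0.397 of those on Day 20, though Cyp2b9 was not called at that step, and both fell further by Day 30. The 110 bases before the start of Cyp2b9 (chr7:26173299-26173408, plus strand) and of Cyp2b13 (chr7:26061385-26061494, plus strand) are identical, and those of Cyp2b10 (chr7:25897548-25897657, plus strand) match Cyp2b9 at 84 of 110 positions. Over 250 bases the identities are 99.2% for Cyp2b13 and 72.8% for Cyp2b10.
Cyp2b9: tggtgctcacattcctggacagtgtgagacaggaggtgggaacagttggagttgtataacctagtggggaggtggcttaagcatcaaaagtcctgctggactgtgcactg
Cyp2b13: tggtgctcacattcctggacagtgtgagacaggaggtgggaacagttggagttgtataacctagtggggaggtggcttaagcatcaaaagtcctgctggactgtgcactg
Cyp2b10: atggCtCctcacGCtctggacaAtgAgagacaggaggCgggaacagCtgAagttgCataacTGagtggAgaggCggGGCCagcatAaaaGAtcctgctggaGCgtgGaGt

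Cyp2a5 and Cyp2a4 shared a start region too (chr7:26835229-26835338 and chr7:26307082-26307191, both plus strand), with 107 of 110 bases identical and the Cyp2a4 sequence shifted by 1 base. Yet Cyp2a5 climbed to 245 ± 54.6 FPKM on Day 20 while Cyp2a4 stood at 6.69 ± 1.47 FPKM, and from Day 20 to Day 25 Cyp2a4 rose whereas Cyp2a5 was not called (-0.41).
Cyp2a5: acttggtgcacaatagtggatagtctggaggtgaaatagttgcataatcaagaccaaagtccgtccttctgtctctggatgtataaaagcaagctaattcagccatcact
Cyp2a4: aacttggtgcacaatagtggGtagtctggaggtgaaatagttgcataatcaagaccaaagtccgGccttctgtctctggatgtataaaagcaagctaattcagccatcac

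Cyp2d9 and Cyp2d10 are 92.5% identical in coding sequence, and their start regions (chr15:82452267-82452376, plus strand, and chr15:82407195-82407304, minus strand) match at 92 of 110 positions. From Day 25 to Day 30 Cyp2d9 rose while Cyp2d10, at 322, 474 and 430.1 FPKM and then 498, 440.3 and 456 FPKM, was not called.
Cyp2d9: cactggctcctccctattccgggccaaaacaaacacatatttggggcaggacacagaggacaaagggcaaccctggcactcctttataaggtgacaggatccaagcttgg
Cyp2d10: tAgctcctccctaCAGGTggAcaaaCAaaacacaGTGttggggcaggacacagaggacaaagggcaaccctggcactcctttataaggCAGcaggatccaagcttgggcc

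Short motifs were searched in the 300-base windows (250 bases before to 50 after the start) of the 32 tested members with a RefSeq window and of all 27025 genes. The TATA box TATAAA, read on the gene's strand, was in 14 members (43.8%) against 8.88% of all genes. CAAAGTCCA, a site form of the hepatocyte factor HNF4, was on either strand in 5 (15.6%), namely Cyp2c40, Cyp2c67, Cyp2c68, Cyp2c69 and Cyp2c70, against 0.477%. GTTAAT, part of the HNF1 site, was on either strand in 6 (18.8%) against 7.20%. The aryl hydrocarbon receptor core GCGTG was on either strand in 4 (12.5%), namely Cyp1a1, Cyp2b10, Cyp2c68 and Cyp2r1, against 32.5%. It was absent from the window of Cyp1a2. TTCNNNGAA, the STAT5 site, was in none against 8.47%. Related members share ancestry, so these counts are not of independent genes, and a match is a description of the letters.

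In the genome order of NCBI37/mm9, 13 members lay on chromosome 7 between 26587494 and 27943687, a span of 1356 kb, in the order Cyp2s1, Cyp2b10, Cyp2b13, Cyp2b9, Cyp2a4, Cyp2b23, Cyp2b19, Cyp2g1, Cyp2a5, Cyp2a22, Cyp2a12, Cyp2f2 and Cyp2t4. Within it Cyp2b13, Cyp2b9, Cyp2b23, Cyp2g1 and Cyp2a22 peaked on Day 20 and had dropped by Day 60 to between 0.256% and 13.7% of their highest mean. Cyp2a5, which lies between Cyp2g1 and Cyp2a22, kept 86.3% on Day 60, and Cyp2a12 and Cyp2f2, which follow Cyp2a22, kept 54.0% and 100%. Cyp2a12 went from 10.5, 7.74 and 9.85 FPKM on GD17.5 to 37.3, 31.1 and 25.2 FPKM on Day 0 (log2 fold change 1.63, SE 0.13, adjusted p = 5.4e-11, and -0.41 after scaling to the hepatocyte markers) and peaked on Day 20 with 397, 389.7 and 426 FPKM. Cyp2a22, whose coding sequence is 97.0% identical to that of Cyp2a12, had 1.59, 1.29 and 1.33 FPKM on GD17.5 and 10.2, 9.22 and 8.94 FPKM on Day 60. Cyp2b13 began at 0.225, 0.134 and 0.253 FPKM.

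**Figure D4:**
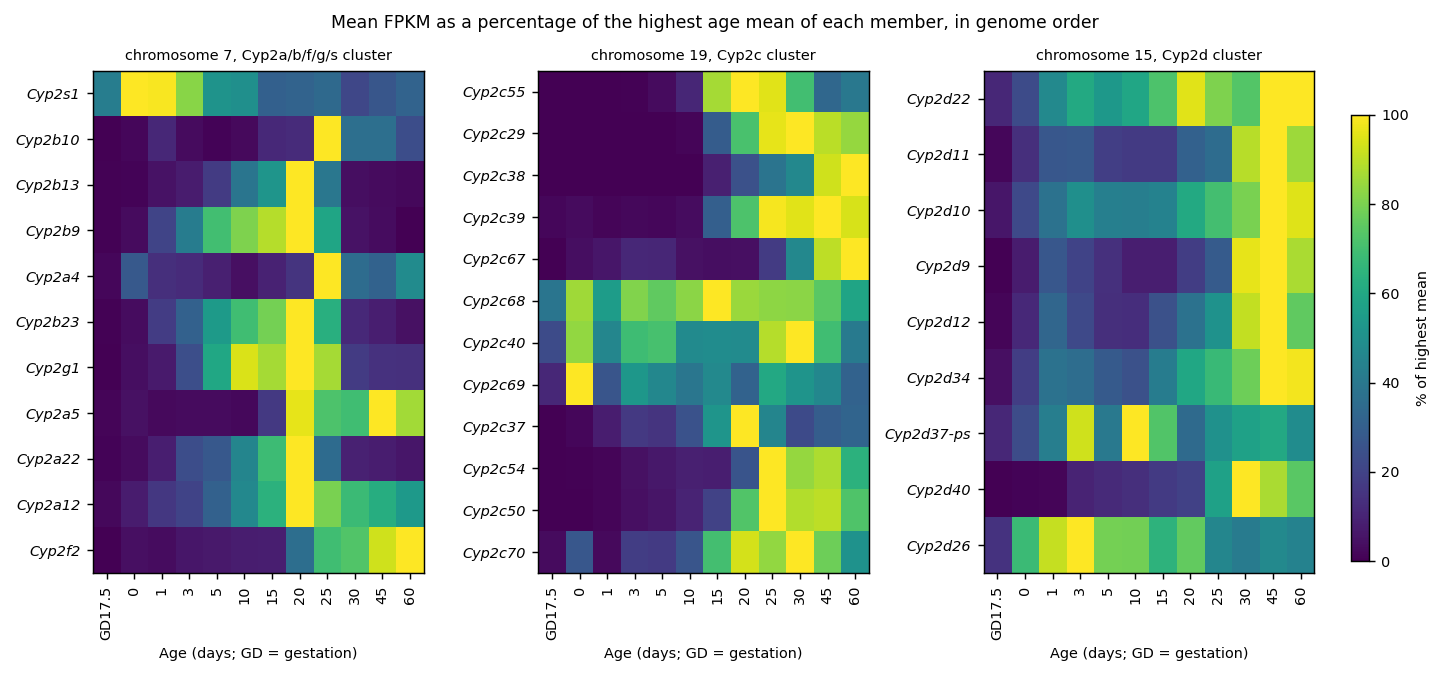
Age means of the tested members as a percentage of each member's highest age mean (colour), with members in genome order (rows) and ages in columns, for the arrays on chromosomes 7, 19 and 15. In the chromosome 7 array 6 members peak on Day 20 and Cyp2f2 on Day 60, and in the chromosome 15 array Cyp2d26, on Day 3, peaks earliest.

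The Cyp2c array on chromosome 19 (39081509 to 40261823, 14 members) held both steady and steeply rising genes. Cyp2c68 varied least, from 40.1, 33.2 and 40.8 FPKM on GD17.5 to 75.3, 110.4 and 66.3 FPKM on Day 0, the step with its largest change (log2 fold change 1.09, SE 0.19, adjusted p = 2.2e-05, and -1.03 after scaling to the hepatocyte markers), and to 93.1, 112 and 88.2 FPKM on Day 15, its highest age. Cyp2c40 went from 34.9, 22.1 and 31.2 FPKM on GD17.5 to 106, 123 and 95.0 FPKM on Day 0 (log2 fold change 1.86, SE 0.18, adjusted p = 2.1e-09, and -0.25 after that scaling) and was highest on Day 30, with 88.9, 175 and 124 FPKM. Of their transcript windows of 100 bases, 44.1% in Cyp2c40, 33.6% in Cyp2c69, 23.7% in Cyp2c67 and 19.8% in Cyp2c68 also occur in another gene, so the values of these 4 can include one another's fragments. The courses of Cyp2c67 and Cyp2c69 differed, with peaks on Day 60 and Day 0. The part of shared fragments in these courses was not tested.

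Elsewhere in this array, Cyp2c37 went from 0.173, 0.208 and 0.187 FPKM on GD17.5 to its Day 0 values (log2 fold change 2.55, SE 0.27, adjusted p = 1.4e-08). Cyp2c50 went from 1.48, 0.993 and 1.10 FPKM on Day 0 to 8.20, 8.04 and 6.20 FPKM on Day 1. Cyp2c70 was highest on Day 30, with 326, 549 and 570.3 FPKM. Cyp2c39 was lowest on Day 1 (0.246 ± 0.0266 FPKM) and highest on Day 45 (18.7 ± 3.97 FPKM), and Cyp2c55 was lowest on Day 0 (0.00394 ± 0.00341 FPKM) and highest on Day 20 (8.42 ± 5.30 FPKM). Cyp2c44 lies apart from the array, at 44079512 to 44103737, and had 29.5, 25.9 and 25.7 FPKM on GD17.5, 50.1, 33.7 and 43.1 FPKM on Day 20, 118, 67.3 and 124 FPKM on Day 25 (log2 fold change 1.23, SE 0.24, adjusted p = 7.6e-04) and 178, 192 and 177 FPKM on Day 60, its highest age.

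In the Cyp2d array on chromosome 15 (82200958 to 82624675, 9 members), Cyp2d26 was the early gene. It had 167, 180.3 and 221 FPKM on GD17.5, 892, 750.2 and 1027 FPKM on Day 0 (log2 fold change 2.22, SE 0.18, adjusted p = 5.8e-11, and 0.08 with adjusted p = 0.68 after scaling to the hepatocyte markers), 1076, 1454 and 1387 FPKM on Day 3, its highest age, and 611, 639.8 and 492 FPKM on Day 60. Cyp2d10 went from 35.2, 34.3 and 37.1 FPKM to 149, 99.6 and 140.3 FPKM at birth (log2 fold change 1.82, SE 0.18, adjusted p = 5.5e-09, and -0.30 after scaling to the hepatocyte markers) and was highest on Day 45, with 586, 602 and 561 FPKM. Cyp2d9 was also highest on Day 45 (1077, 1117 and 1109 FPKM), after a first rise to 286, 286 and 321 FPKM on Day 1 and lower values of 84.1, 92.5 and 100.2 FPKM on Day 15.

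Cyp2d22 was at 10.5, 8.87 and 9.18 FPKM on GD17.5, 27.8, 13.2 and 18.8 FPKM on Day 0, 43.7, 45.1 and 33.2 FPKM on Day 1 and 89.98, 90.5 and 79.4 FPKM on Day 60. Cyp2d12 had 0.521, 0.353 and 0.833 FPKM on GD17.5, 8.51, 2.02 and 3.40 FPKM on Day 0, where mouse 1 was highest, and 43.3, 35.3 and 42.2 FPKM on Day 45. Cyp2d40 had 0.130, 0.199 and 0.174 FPKM on GD17.5, 0.432, 0.912 and 0.847 FPKM on Day 1, 3.91, 4.54 and 5.68 FPKM on Day 3 (log2 fold change 1.72, SE 0.28, adjusted p = 9.0e-05) and 64.1, 38.7 and 38.1 FPKM on Day 30, its highest age.

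The weaker Cyp2d members were highest on Day 45, with 15.0 ± 2.25 FPKM for Cyp2d13, 13.2 ± 3.27 FPKM for Cyp2d34 and 3.82 ± 0.160 FPKM for Cyp2d11, against 0.241 ± 0.0256, 0.542 ± 0.195 and 0.0675 ± 0.00635 FPKM on GD17.5. The pseudogene Cyp2d37-ps had 0.376 ± 0.340 FPKM on GD17.5 and its highest mean, 3.35 ± 2.93 FPKM, on Day 10.

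Outside these arrays, Cyp1a2 and Cyp1a1 lay side by side on chromosome 9 (57524744 to 57551629) and Cyp2e1 (147949638 to 147960874) and Cyp2r1 (121693680 to 121706486) stood alone on chromosome 7. The Cyp2j genes with an annotated position lay on chromosome 4 (95694225 to 96330845, 5 members). Of these, Cyp2j5, an arachidonic acid epoxygenase of liver and kidney, rose from 0.192, 0.108 and 0.0984 FPKM on GD17.5 to 3.70, 2.64 and 1.94 FPKM on Day 0 (log2 fold change 1.70, SE 0.30, adjusted p = 2.8e-05) and 70.2, 69.8 and 58.1 FPKM on Day 60, its highest age. Cyp2j6 rose from 0.474 ± 0.0588 to 7.81 ± 1.07 FPKM (log2 fold change 2.57, SE 0.21, adjusted p = 5.1e-12). Cyp2s1, which is mostly expressed outside the liver, was highest on Day 0 (1.13 ± 0.171 FPKM), lowest on Day 30 (0.240 ± 0.123 FPKM) and had 0.362 ± 0.113 FPKM on Day 60. Cyp2g1 was listed at 0 in all 3 fetal livers, reached 3.90 ± 2.19 FPKM on Day 20 and was 0.534 ± 0.119 FPKM on Day 60. Cyp2b23 was at 0.0261 ± 0.0128 FPKM on GD17.5 and highest on Day 20 (3.44 ± 0.460 FPKM). Cyp1a2 was highest on Day 45, with 591, 645 and 537 FPKM.

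The 14 members that stayed below the minimum had highest single values from 0.00676 to 0.766 FPKM, and 7 of them were listed at 0 in over 18 of the 36 mice. The highest single values were 0.766 FPKM for Cyp2j9, 0.542 for Cyp2b19, known from keratinocytes, 0.284 for Cyp2j13, 0.263 for Cyp2j11-ps, 0.229 for Cyp2j7-ps, 0.150 for Cyp2c53-ps and 0.148 for Cyp2w1. For the others they were 0.124 (Cyp1b1), 0.0751 (Cyp2c65), 0.0426 (Cyp2j8-ps), 0.0276 (Cyp2ab1), 0.0275 (Cyp2t4), 0.0271 (Cyp2c66) and 0.00676 FPKM (Cyp2j12-ps). Cyp2b19, within the chromosome 7 array, was at 0.438 ± 0.107 FPKM on Day 20 and 0.0132 ± 0.00435 FPKM on Day 60.

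Of 21 listed partners and regulators of these enzymes, 20 were tested, and 15 were higher (background 18.6%) and 2 lower (background 56.4%) on Day 60 than on GD17.5. Across birth 9 were higher (background 13.1%) and 3 lower (background 41.4%), and across weaning 2 were higher (background 3.94%) and 2 lower (background 3.26%). Por, the electron donor, was at 26.5 ± 1.28 FPKM on GD17.5, 209 ± 121 FPKM on Day 0 and 248.5 ± 13.4 FPKM on Day 1, and fell from 163 ± 53.8 FPKM on Day 20 to 86.6 ± 2.84 FPKM on Day 25 (log2 fold change -0.86, SE 0.25, adjusted p = 0.031). Nr1i3, which encodes the constitutive androstane receptor, went from 0.530 ± 0.0704 FPKM on GD17.5 to 8.43 ± 2.83 FPKM on Day 0 (2.58, SE 0.19, adjusted p = 6.0e-12), 31.8 ± 3.02 FPKM on Day 3 and 13.7 ± 3.43 FPKM on Day 60. Alas1, the first enzyme of haem synthesis, was at 11.5 ± 0.796 FPKM on GD17.5 and 65.6 ± 10.4 FPKM on Day 20, and the adult mice spread from 18.2 to 107 FPKM. Bcl6, a repressor with higher expression in adult male liver, was at 0.601 ± 0.219 FPKM on Day 25 and 3.62 ± 4.19 FPKM on Day 60, where mouse 2 alone reached 8.41 FPKM.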

How the data were processed

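RNA-Seq was performed on polyadenylated RNA from whole livers of 36 male mice, 3 at each of 12 ages. The FPKM values were deposited by the authors, who mapped paired reads to NCBI37/mm9 with TopHat 1.2.0 and estimated expression with Cufflinks 1.0.3. No counts were used, and about 85.0 fragments (in units of 1000000) per library were estimated from whole-number steps in 950 genes, where 77.8% of low values fell no further than 0.2 from a whole number. Summed FPKM per library ranged from 353712 to 450597.

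The 11149 of 21889 genes whose mean reached 1 FPKM at any age were tested with limma 3.58.1 in R 4.3.3 on log2(FPKM + 1), with 1 mean per age over all 36 mice, a mean-variance trend and Benjamini-Hochberg adjustment within each comparison. The test was checked on simulated data in which the spread of a gene was the same at all ages. That check does not cover single mice that stand apart, such as Day 60 mouse 3. For the count over any age, the adjustment was over all comparisons with Day 60 together. This replaced a Dunnett comparison for each gene, which was kept as an alternative. Other alternatives were a pseudocount of 0.1, no filter, a filter at 5 FPKM, no variance trend, other scalings, a replicate block, and leaving out each library. The hepatocyte scaling and the fit without the 6 libraries were chosen after seeing the data.

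Members were named by symbol, those with a highest mean of at least 20 FPKM by all mice at the ages of their highest and lowest mean and both ends of their largest step, the others by age means, and the 6 largest changes of each main comparison with full statistics. Members, gene lists and tests were chosen with earlier results of these data known. Positions were matched by symbol to GENCODE on the same build for 50 of 55 members. Start regions came from RefSeq (GRCm38.p6). Sequences and tables were handled in Python 3.11.15 with pandas 2.3.3, numpy 2.4.6, scipy 1.17.1 and Biopython 1.88, and plots were drawn with matplotlib 3.10.9.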

Additional observations from a re-analysis of the deposited data

How the results depend on the processing

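Of 199 calls of single members over all comparisons, 143 held under all the alternatives chosen at the outset, 144 in every fit without 1 library and 113 when the hepatocyte scaling and the fit without the 6 libraries were counted too, and no alternative but the hepatocyte scaling turned a sign. Leaving out 1 library gave 40 to 41 members that differed from Day 60 in any age, 35 to 38 higher at Day 60 than at GD17.5, 24 to 28 higher at Day 0, 18 to 24 higher and 3 to 6 lower at Day 1, 11 to 13 higher and 4 to 6 lower at Day 25, and 5 to 9 higher and 9 to 11 lower at Days 45 and 60. Under the Dunnett comparison 40 members differed from Day 60. Without the filter, 1 member was lower at Day 0 than at GD17.5 and 1 lower at Day 60, each from outside the 41 tested members. A pseudocount of 0.1 gave 1 lower at Day 60, Cyp2b9. Without the 6 libraries with pancreatic or muscle markers, 17 members were higher at Day 0 and 4 at Days 45 and 60.

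Scaling to the hepatocyte markers moved the median log2 fold change of all genes between GD17.5 and Day 60 from -0.56 to -2.56, against -0.14 with upper-quartile scaling and -0.60 with a common sum. It gave 11 members higher and 10 lower at Day 0, and 6 lower at Day 60. From GD17.5 to Day 0 it gave log2 fold changes of -0.41 for Cyp2a12, -0.38 for Cyp2a22, -0.37 for Cyp2a5, -0.25 for Cyp2c40, -1.30 for Cyp2c44, -1.03 for Cyp2c68, -0.30 for Cyp2d10, -0.36 for Cyp2d13, -1.11 for Cyp2d22, -0.071 for Cyp2d34, -0.27 for Cyp2j6 and -0.57 for Cyp2s1. From GD17.5 to Day 60 it gave -0.13 for Cyp2b13, -1.47 for Cyp2c40, -1.76 for Cyp2c68, -0.81 for Cyp2c69 and -0.74 for Cyp2d26, and from Day 5 to Day 10 -0.075 for Cyp2a12.

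The summed expression of all members changed by 4.39 on the log2 scale from GD17.5 to Day 60, or 3.98 without Cyp2e1. Leaving out the most expressed member of a subfamily moved this change of the sum from 4.97 to 5.50 for Cyp2a, from 3.90 to 3.26 for Cyp2c and from 3.25 to 5.07 for Cyp2d. Replicate numbers were not treated as pairing the mice, since nothing in the labels ties them and the lowest correlation between deviations of same-numbered mice was -0.68. The mean r was 0.0978 for mice of the same number and -0.0477 for other mice, and 19 of 36 libraries correlated best with their own number, a hint of shared deviations from the data alone. With the replicate number as a block, 41 members differed from Day 60, 28 were higher at Day 0, 24 higher and 5 lower at Day 1, 13 higher and 6 lower at Day 25, 37 higher at Day 60, and 7 higher and 10 lower at Days 45 and 60, and the calls of Cyp2c38 (Day 45) and Cyp2d9 (Day 10) were lost. With 3 mice per age, small changes are limited by the spread among mice.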
